A study of Mus musculus with 6 samples.

Results

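The 9 genes described here encode proteins of megakaryocytes and platelets: Vwf, Mmrn1, Pf4, Selp, Itga2b, Itgb3, Gp9, Tubb1 and Rab27b. They were taken by name as a group of platelet-lineage genes, and were chosen with earlier results of these data known. Every non-control probe that the arrays carry for them was used, 13 of 55681 probes and 9 of 34797 named genes. Vwf, Mmrn1, Itgb3 and Rab27b had 2 probes each and the other 5 genes had 1. All 13 probes passed the filter on dim signals, as did 44641 probes in all. Each gene is described by its brighter probe (its lead probe), with the other probe beside it.

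The study compared mice lacking Bmi1, a Polycomb group gene, with wild-type (WT) mice of the C57BL6 background at 2 to 3 months of age. Haematopoietic stem cells (HSCs) and multipotent progenitors (MPPs) were sorted from the animals by flow cytometry, and 10 µg of total RNA per sample was copied into dye-labelled cDNA from an oligo-dT primer. There were 3 arrays of HSCs and 3 of MPPs, described by the labels as biological replicates, and each array carried 1 knockout (KO) sample in Cy5 and 1 WT sample in Cy3. KO and WT below stand for the samples so labelled: the labels give neither the deleted part of Bmi1 nor whether animals were pooled, and no array had the dyes exchanged.

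Megakaryocytes fill their alpha and dense granules with adhesive and signalling proteins, carry the receptors that bind them, and build the microtubule ring that shapes the platelet. Several of these genes are already transcribed in mouse HSCs, where Vwf and Itga2b (CD41) have been used to mark stem cells that are biased toward platelets. MPPs lie one step further along haematopoiesis and are commonly told from HSCs by Flt3, Cd48 and Cd34.

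In bulk RNA, a lower share of cells that express a gene and less of its RNA per cell cannot be told apart. Because every WT sample was read in one dye and every KO sample in the other, HSCs were set against MPPs within each dye, and KO against WT by the ratio on each array. A dye effect of a probe is part of its KO over WT ratio and cannot be told apart from genotype, but it cancels between populations if it is constant. Levels are log2 channel signals made alike in distribution across the arrays of a dye, while ratios were normalised array by array, so a ratio is not the difference of the printed levels. Tests were limma fits across all 44641 probes, with Benjamini-Hochberg adjusted p-values and 0.05 as the threshold.

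Median spot signals ran from 124 to 206 in green and from 379 to 581 in red, and 72.5 to 83.9% of non-control spots in a channel were well above background. The arrays lay on 1 slide, with the HSC arrays and MPP array 1 in one row and MPP arrays 2 and 3 in the other. Over the tested probes, WT levels had r of 0.84 to 0.87 among HSC arrays and 0.91 to 0.93 among MPP arrays. Between populations r ran from 0.80 to 0.92, so some HSC and MPP samples were more alike than any pair of HSC samples. KO levels had r of 0.87 to 0.91 among HSC arrays, 0.94 to 0.96 among MPP arrays and 0.85 to 0.93 between populations. The brighter Bmi1 probe gave a KO over WT ratio below 0 on 4 of 6 arrays, with a mean of -1.11 in HSCs (adjusted p = 0.676, limma) and 0.01 in MPPs (adjusted p = 1). The other Bmi1 probe gave a ratio above 0 on 4 of 6 arrays, with means of -0.064 in HSCs (adjusted p = 0.985) and 0.53 in MPPs (adjusted p = 0.994). Without knowing where these probes lie relative to the deletion, they do not check the labels. The MPP markers Flt3, Cd48 and Cd34 had lower means in HSCs in both dyes, with Flt3 passing the test in each (WT -3.03, adjusted p = 0.0291; KO -2.92, adjusted p = 0.0226). Of the 8 HSC markers, 7 had a higher mean in HSCs than MPPs in WT and 6 in KO, and 0 passed the adjusted test in limma. At an unadjusted p under 0.05 there were 3 in WT and 4 in KO, beside 14.2% and 11.6% of all probes. Slamf1, part of each of these counts, passed the filter through its HSC samples alone. A higher reading in HSCs was thus favoured by its inclusion.

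The probe for Itga2b and that for Tubb1 are shown because they set what each measurement reports. The Itga2b probe, at chr11:102319453-102319661 on the minus strand of mm9, spreads its 60 bases over 209 genomic bases and therefore crosses a splice junction, so it detects spliced message. The Tubb1 probe, at chr2:174283277-174283336 of mm9, is contiguous in the genome and has 1 reading frame without a stop codon. Both are read 5′ to 3′ in the sense of the transcript.
Itga2b: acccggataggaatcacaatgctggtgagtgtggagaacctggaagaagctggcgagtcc
Tubb1: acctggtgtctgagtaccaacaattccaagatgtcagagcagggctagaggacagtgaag

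The RefSeq promoter table (GRCm38.p6) listed 6 of the 9 genes: Itga2b, Gp9, Pf4, Selp, Tubb1 and Mmrn1. The 250 bases before each start were searched on both strands for GATAAG, the core letters bound by GATA factors, and AGGAAG, letters found in many sites of ETS factors such as Fli1. The strings can share end letters with each other. AGGAAG, or its complement CTTCCT, occurred in 5 of the 6, against 29.5% of the 32851 promoters in the table. GATAAG occurred in 1 of the 6, Gp9, against 6.55% of the table, and Gp9 was the only one of the 6 with both, against 2.06%. The Gp9 matches begin 43 (GATAAG) and 16 (CTTCCT) bases before the start, those of Itga2b 125 and 43, and that of Pf4 9. Shown are the promoters of the receptor genes Itga2b and Gp9, of Pf4, and of Mmrn1, which holds neither string; capitals mark the matches, and a match describes letters, not a bound site.
Itga2b, chr11:102469884-102470133, minus strand: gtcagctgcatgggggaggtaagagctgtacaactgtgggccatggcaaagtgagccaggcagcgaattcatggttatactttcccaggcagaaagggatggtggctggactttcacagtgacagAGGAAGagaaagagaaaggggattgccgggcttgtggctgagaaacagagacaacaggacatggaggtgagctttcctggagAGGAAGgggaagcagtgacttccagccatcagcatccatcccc
Gp9, chr6:87777820-87778069, plus strand: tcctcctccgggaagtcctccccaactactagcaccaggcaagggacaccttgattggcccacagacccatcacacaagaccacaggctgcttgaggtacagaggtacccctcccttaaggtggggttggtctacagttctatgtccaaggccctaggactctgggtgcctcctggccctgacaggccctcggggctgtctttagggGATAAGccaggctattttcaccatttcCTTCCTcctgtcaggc
Pf4, chr5:90772185-90772434, plus strand: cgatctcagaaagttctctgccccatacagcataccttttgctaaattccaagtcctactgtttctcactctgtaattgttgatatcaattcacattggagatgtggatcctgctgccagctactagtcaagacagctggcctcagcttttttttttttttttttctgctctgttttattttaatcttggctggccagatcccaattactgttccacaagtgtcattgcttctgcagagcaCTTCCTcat
Mmrn1, chr6:60944067-60944316, plus strand: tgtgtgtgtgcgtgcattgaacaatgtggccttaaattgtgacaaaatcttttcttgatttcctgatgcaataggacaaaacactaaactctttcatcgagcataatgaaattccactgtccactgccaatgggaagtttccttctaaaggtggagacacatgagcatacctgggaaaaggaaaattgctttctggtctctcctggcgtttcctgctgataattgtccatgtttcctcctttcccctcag

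Most of the 9 genes read higher in HSCs than in MPPs. Because the 9 genes were chosen with earlier results of these data known, their counts beside those of all probes are descriptive. In WT the mean of the lead probe was higher in HSCs for 8 of 9 genes, all but Selp, where 55.9% of all tested probes were higher in HSCs. The median HSC minus MPP difference of the 9 was 0.88 on the log2 scale, beside 0.08 over all probes. In KO it was also 8 of 9, this time all but Tubb1 (all probes 56.6%), with a median of 1.45 beside 0.08. The Gp9 probe passed the filter through its HSC samples alone, so a higher reading in HSCs was favoured by its inclusion. Without Gp9, 7 of 8 genes were higher in HSCs in each genotype, with medians of 0.88 in WT and 1.24 in KO. Counting the second probes too, 12 of 13 probes were higher in HSCs in either genotype, and 11 of 12 without Gp9.

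Vwf, in KO samples, was the one member whose difference passed the adjusted test. With Benjamini-Hochberg adjustment 0 of 13 probes passed in WT (0.287% of all probes passed) and 1 of 13 in KO (0.352%). At an unadjusted p under 0.05 and higher in HSCs there were 7 of 13 probes in WT (all probes 7.62%) and 4 of 13 in KO (5.36%). The lead probes among them were those of Vwf, Mmrn1, Pf4 and Tubb1 in WT, and of Vwf, Mmrn1, Itga2b and Rab27b in KO. The 3 HSC values lay wholly above the 3 MPP values for 7 of 13 probes in WT (12.9% of all probes) and for 5 of 13 in KO (10.6%). Only both Vwf probes and the lead probe of Mmrn1 did so in WT and in KO alike, 3 of 13 probes against 3.18% of all probes.

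**Figure D1:**
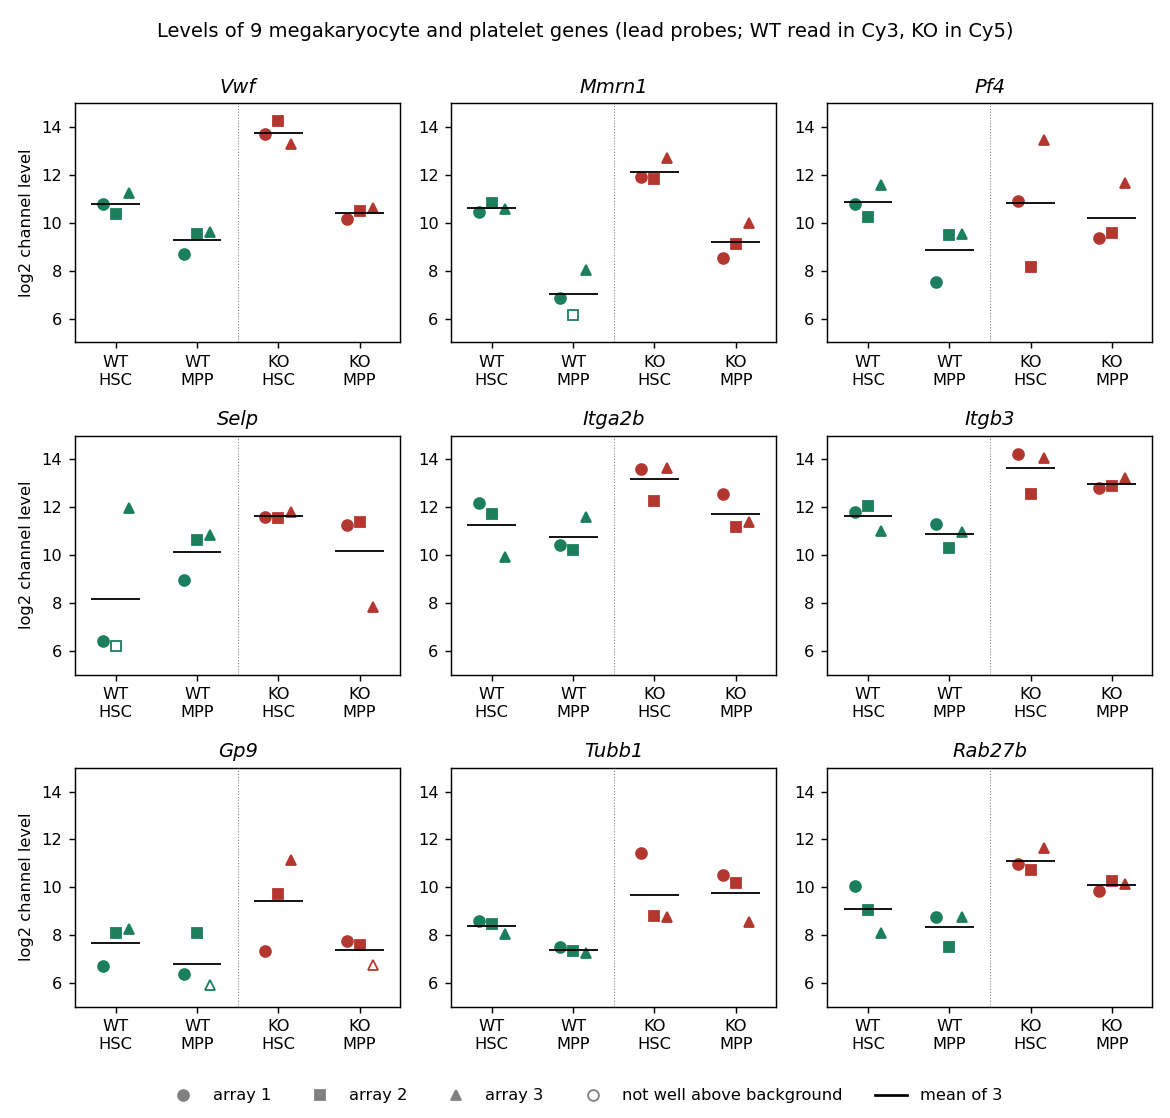
Log2 channel level of the lead probe of each of the 9 genes on every array, WT (green) and KO (red) in HSCs and MPPs, with the mean of 3 as a bar and open symbols for readings not well above background. Vwf and Mmrn1 show HSC readings above every MPP reading in both genotypes, and Selp in WT HSCs spans 6.18 to 11.95.

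Vwf encodes von Willebrand factor, the large adhesive multimer that tethers platelets to damaged vessel walls. Its lead probe starts at base 8672 of its transcript, at chr6:125636551-125636610 of mm9. In WT it read 10.80, 10.37 and 11.26 in HSC samples 1, 2 and 3, and 8.70, 9.55 and 9.62 in MPP samples 1, 2 and 3. In KO it read 13.73, 14.28 and 13.29 in HSCs and 10.15, 10.48 and 10.62 in MPPs. HSCs lay above MPPs in both dyes without overlap, and in KO the lowest HSC reading stood far above the highest MPP reading. The difference was 3.35 in KO (SE 0.33, n = 3 and 3, 10.2-fold, adjusted p = 0.0219, limma) and 1.52 in WT (SE 0.38, 2.86-fold, adjusted p = 0.228).

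The size of the Vwf difference in KO changed little between settings but its call did not hold in all of them. Without HSC array 3 the adjusted p was 0.0337, and without HSC array 1, HSC array 2, MPP array 1, MPP array 2 or MPP array 3 it was 0.0722, 0.0508, 0.105, 0.104 and 0.103, with differences from 3.09 to 3.59. With slide row as a fixed term the difference was 3.62 (adjusted p = 0.278). Within the slide row that holds MPP array 1, the only MPP array left, which is assumed to vary as the HSC arrays do, the difference was 3.62 (adjusted p = 0.593). Vwf is also an endothelial gene. Of the 9 endothelial markers, 7 were tested and Cdh5 and Sox18 did not pass the filter; 6 of the 7 had a higher mean in HSCs in each genotype, with medians of 0.64 in WT and 0.31 in KO. Their mean level per sample ran from 9.36 to 10.17 in WT HSCs, 8.71 to 9.11 in WT MPPs, 10.58 to 10.93 in KO HSCs and 9.80 to 10.43 in KO MPPs, and their part in the Vwf difference was not tested.

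The second Vwf probe, at chr6:125542106-125542165, lies upstream of the first and is annotated to a separate Ensembl transcript, at its base 1800. It read 11.07, 10.22 and 10.45 in WT HSCs against 9.61, 9.24 and 9.37 in WT MPPs. In KO it read 11.04, 10.66 and 11.31 in HSCs against 10.41, 10.51 and 10.25 in MPPs. HSCs were again above MPPs without overlap, by 1.17 in WT (SE 0.30, adjusted p = 0.239) and 0.61 in KO (SE 0.27, adjusted p = 0.453). Over the 12 channel readings, centred within dye, the 2 probes had r = 0.62.

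Mmrn1 encodes multimerin 1, a protein of the alpha granule that binds coagulation factor V. Its lead probe, at chr6:60938883-60938942, read 10.44, 10.83 and 10.58 in WT HSCs and 6.88, 6.15 and 8.05 in WT MPPs, where the reading of MPP sample 2 was not well above background. In KO it read 11.91, 11.84 and 12.70 in HSCs and 8.54, 9.12 and 9.98 in MPPs. The WT HSC readings lay close together (SD 0.20, n = 3), and no MPP reading reached an HSC reading of its own dye. The difference was 3.59 in WT (SE 0.50, adjusted p = 0.0692, limma), the highest estimate among the 9 genes in WT, and 2.94 in KO (SE 0.45, 7.66-fold, adjusted p = 0.0748). Neither passed the threshold; across 14 other settings the WT difference ran from 3.15 to 4.87 with adjusted p from 0.0572 to 0.656, and the KO difference from 2.60 to 3.61 with adjusted p from 0.0569 to 0.588.

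The other Mmrn1 probe, at chr6:60896017-60896076 and annotated to an Ensembl transcript, was dim in WT. It was well above background in 2 of 3 WT HSC samples and 1 of 3 WT MPP samples, and its HSC minus MPP differences were 0.99 (SE 0.51) in WT and 0.81 (SE 0.74) in KO, adjusted p = 0.428 and 0.692. Its readings overlapped between populations in both genotypes, and its r with the lead probe over the 12 readings was 0.54.

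Pf4 encodes platelet factor 4, a chemokine (CXCL4) released from alpha granules. Its probe, at chr5:91202275-91202334, read 10.79, 10.25 and 11.59 in WT HSCs and 7.52, 9.50 and 9.53 in WT MPPs. The populations did not overlap in WT, and the difference was 2.03 (SE 0.65, 4.07-fold, adjusted p = 0.29). In KO the HSC samples read 10.92, 8.16 and 13.45 and the MPP samples 9.39, 9.59 and 11.66. KO HSC sample 2 lay below every MPP sample and sample 3 above them all, so that the KO difference of 0.63 (SE 1.33) was smaller than the spread of the samples, and it was -0.68 without HSC array 3.

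Selp encodes P-selectin, an adhesion receptor kept in the granule membrane that binds leukocytes once it reaches the surface. The array holds 10 spots of its single probe, at chr1:166079660-166079719. In WT HSCs it read 6.41, 6.18 and 11.95, with sample 2 not well above background, and in WT MPPs 8.95, 10.64 and 10.85. In KO HSCs it read 11.57, 11.54 and 11.79, and in KO MPPs 11.25, 11.37 and 7.82. WT HSC sample 3 stood far above the other WT HSC samples and KO MPP sample 3 far below the other KO MPP samples. The SD of the ratio among the spots of an array was 0.04 to 0.17, against an SD of 3.06 among the 3 HSC arrays and 2.87 among the 3 MPP arrays. The HSC minus MPP difference was -1.97 in WT (SE 1.60, adjusted p = 0.597) and 1.49 in KO (SE 0.93, adjusted p = 0.575), where HSCs lay above MPPs without overlap.

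Itga2b and Itgb3 encode the alpha and beta chains of the fibrinogen receptor, CD41 and CD61, through which platelets aggregate. The Itga2b probe shown above read 12.17, 11.73 and 9.91 in WT HSCs and 10.44, 10.20 and 11.61 in WT MPPs. In KO it read 13.60, 12.25 and 13.63 in HSCs and 12.57, 11.18 and 11.39 in MPPs. WT HSC sample 3 fell below all WT MPP samples and KO HSC sample 2 below KO MPP sample 1, so both genotypes overlapped. The difference was 0.52 in WT (SE 0.69, adjusted p = 0.756) and 1.45 in KO (SE 0.54, 2.73-fold, adjusted p = 0.386).

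The lead probe of Itgb3, at chr11:104528625-104528684, read 11.81, 12.06 and 11.00 in WT HSCs and 11.32, 10.31 and 10.98 in WT MPPs. In KO it read 14.24, 12.56 and 14.07 in HSCs and 12.80, 12.87 and 13.22 in MPPs. The populations overlapped in each genotype, with differences of 0.75 in WT (SE 0.41, adjusted p = 0.445) and 0.66 in KO (SE 0.48, adjusted p = 0.623). The second probe, at chr11:104531672-104531731 and further along the same transcript, read 7.51, 7.99 and 8.52 in WT HSCs and 6.35, 6.42 and 6.74 in WT MPPs. It separated the WT populations, by 1.50 (SE 0.33, 2.83-fold, adjusted p = 0.19), but not the KO populations, where HSC sample 3 at 11.04 stood apart from 8.10 and 7.21. The r between the 2 probes over the 12 readings was 0.48.

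Gp9 encodes glycoprotein IX, a part of the receptor complex that holds von Willebrand factor. Its probe, at chr6:87729650-87729709, was dim: WT HSCs read 6.69, 8.07 and 8.25 and WT MPPs 6.39, 8.08 and 5.91. KO HSCs read 7.33, 9.73 and 11.16 and KO MPPs 7.75, 7.57 and 6.75. MPP sample 3 was not well above background in either genotype, and the populations overlapped in both. The differences of 0.88 in WT (SE 0.69, adjusted p = 0.583) and 2.05 in KO (SE 0.93, adjusted p = 0.459) did not pass the test.

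Tubb1 encodes beta-1 tubulin, the tubulin of the platelet's microtubule ring. In WT the spread was narrow, with 8.59, 8.45 and 8.06 in HSCs and 7.48, 7.33 and 7.26 in MPPs, and the populations did not overlap. The WT difference was 1.01 (SE 0.25, 2.01-fold, adjusted p = 0.228). In KO the HSC samples read 11.44, 8.79 and 8.77 and the MPP samples 10.50, 10.19 and 8.56. KO HSC sample 1 lay above all 3 KO MPP samples, and the other KO HSC samples lay below 2 of the 3. The KO difference was -0.08 (SE 0.86, adjusted p = 0.979, limma).

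Rab27b encodes a small GTPase that takes part in packing and secreting dense granules. Its lead probe read 10.05, 9.06 and 8.09 in WT HSCs and 8.76, 7.51 and 8.76 in WT MPPs, which overlapped. In KO it read 10.96, 10.72 and 11.64 in HSCs and 9.82, 10.27 and 10.14 in MPPs, which did not. The differences were 0.72 in WT (SE 0.60, adjusted p = 0.604) and 1.03 in KO (SE 0.33, 2.04-fold, adjusted p = 0.323). The other probe of the same transcript gave 0.95 in WT (SE 0.38, adjusted p = 0.347), without overlap, and 0.38 in KO (SE 0.31, adjusted p = 0.658), and the r between the probes was 0.35.

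**Figure D2:**
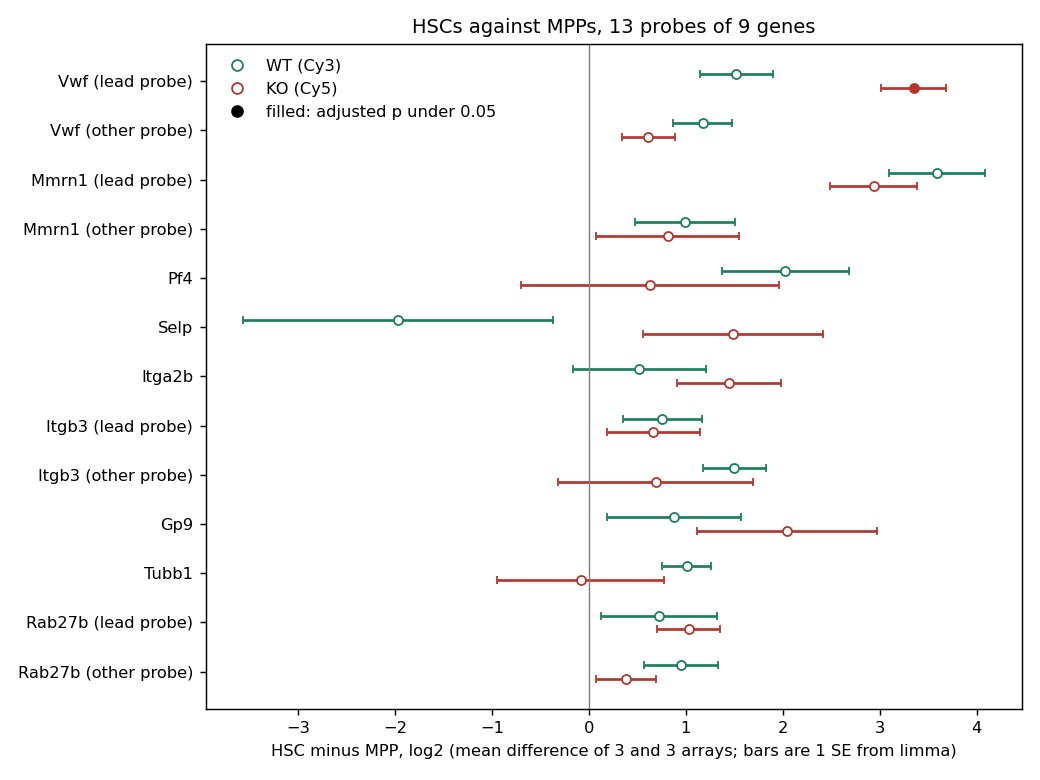
HSC minus MPP difference in log2 for the 13 probes, WT in green and KO in red, as the mean difference of 3 and 3 arrays with 1 SE from limma; a filled point passed the adjusted test. The one filled point is the lead probe of Vwf in KO at 3.35. In each genotype 12 of 13 points lie right of 0, or 11 of 12 without Gp9, which passed the filter through HSCs alone.

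Between KO and WT no member passed the adjusted test in either population. In HSCs 0 of 13 probes passed (0% of all probes) and in MPPs 0 of 13 (0%), as did 0 for the difference between the populations (0%). At an unadjusted p under 0.05 in limma there were 2 of 13 in HSCs, both Vwf probes (all probes 7.34%), 1 of 13 in MPPs, the lead Mmrn1 probe (4.81%), and 1 of 13 for the difference, the lead Vwf probe (4.15%). In HSCs, 3 of 13 probes kept one sign of the ratio across their 3 arrays (26.8% of all probes), and in MPPs 4 of 13 (29.1%). The median log2 ratio of the 9 lead probes was 0.53 in HSCs and -0.08 in MPPs, beside -0.0036 and -0.0034 over all probes. Of the 9, 7 were above 0 in HSCs and 4 in MPPs. Over all tested probes, ratios of replicate arrays had r from -0.070 to 0.080 within HSCs and -0.013 to 0.20 within MPPs. The ratios thus agreed little between replicate arrays, which limits every ratio given here and below. The HSC ratios of Gp9, Itga2b, Mmrn1 and Rab27b, all above 0, went below 0 without HSC array 3, to -0.045, -0.44, -0.10 and -0.022.

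For Vwf, the 2 probes gave KO over WT ratios of opposite sign in HSCs. The lead probe gave log2 ratios of 1.34, 2.44 and 0.63 on HSC arrays 1, 2 and 3 and 0.10, -0.55 and -0.43 on MPP arrays 1, 2 and 3. The second probe gave -1.21, -0.85 and -0.44 in HSCs and -0.50, -0.17 and -0.56 in MPPs. All 3 HSC arrays were above 0 with the first probe and all 3 below 0 with the second. The HSC mean was 1.47 for the lead probe (SE 0.38, 2.77-fold, adjusted p = 0.673) and -0.83 for the other (SE 0.25, adjusted p = 0.673). The HSC ratio minus the MPP ratio, in which a constant dye effect cancels, was 1.76 (SE 0.54, adjusted p = 0.968) with the lead probe and -0.42 (SE 0.36, adjusted p = 0.968) with the other.

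**Figure D3:**
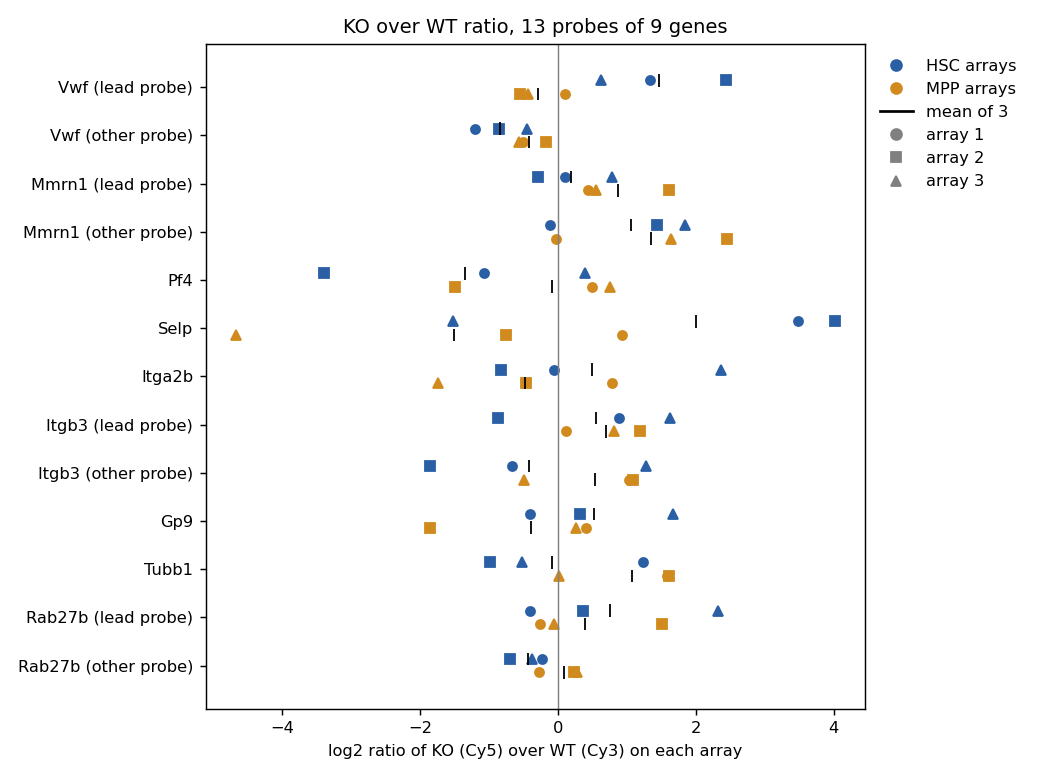
Log2 ratio of KO (Cy5) over WT (Cy3) on each array for the 13 probes, HSC arrays in blue and MPP arrays in orange, with the mean of 3 as a black bar. The Vwf lead probe lies above 0 on 3 of 3 HSC arrays and the second Vwf probe below 0 on 3 of 3, and Selp spans 4.03 to -4.67.

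The other granule genes had no common direction between KO and WT. The lead Mmrn1 probe gave 0.10, -0.29 and 0.78 on the HSC arrays. On the MPP arrays it gave 0.44, 1.62 and 0.55, each above 0. Its means were 0.20 (SE 0.34) in HSCs and 0.87 (SE 0.34, adjusted p = 0.992, limma) in MPPs. The WT reading of MPP array 2 was not well above background, and without that array the MPP mean was 0.49. For Pf4 the HSC arrays gave -1.07, -3.38 and 0.40, and the MPP arrays 0.50, -1.49 and 0.75. The lowest Pf4 ratio of each population was on its array 2, and the HSC mean of -1.35 (SE 0.76, adjusted p = 0.704) was the lowest of the 9 genes there. For Selp the HSC arrays gave 3.49, 4.03 and -1.52 and the MPP arrays 0.92, -0.76 and -4.67, so that single arrays differed from their group by several log2 units. Its means of 2.00 (SE 1.37) and -1.50 (SE 1.37) and their difference of 3.50 (95% interval -1.19 to 8.19) were within that spread.

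The receptor genes also spread across 0. Itga2b gave -0.06, -0.82 and 2.37 on the HSC arrays, then 0.78, -0.47 and -1.74 on the MPP arrays, with means of 0.50 (SE 0.71) and -0.47 (SE 0.71). The lead Itgb3 probe gave 0.89, -0.87 and 1.63 in HSCs and 0.12, 1.19 and 0.81 in MPPs. Its MPP ratios were all above 0, with a mean of 0.70 (SE 0.50, adjusted p = 0.994). Gp9 gave -0.41, 0.32 and 1.67 on the HSC arrays, then 0.40, -1.86 and 0.27 on the MPP arrays, and neither mean, 0.53 (SE 0.57) and -0.39 (SE 0.57), exceeded its error.

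The HSC arrays gave Tubb1 ratios of 1.23, -0.98 and -0.52, and the MPP arrays 1.59, 1.61 and 0.01. The MPP arrays were all above 0, array 3 only just, with a mean of 1.07 (SE 0.52, adjusted p = 0.992), and the HSC mean was -0.09 (SE 0.52). The lead Rab27b probe gave -0.40, 0.36 and 2.33 in HSCs and -0.26, 1.51 and -0.06 in MPPs, with means of 0.76 (SE 0.59) and 0.40 (SE 0.59). Its other probe gave -0.22, -0.69 and -0.37 in HSCs, all below 0, with a mean of -0.43 (SE 0.24, adjusted p = 0.705), so the 2 Rab27b probes also had HSC means of opposite sign. On HSC array 3 the lead probes of Mmrn1, Pf4, Itga2b, Itgb3, Gp9 and Rab27b each gave the highest HSC ratio of the gene, while those of Vwf and Selp gave their lowest.

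Across the 12 channel readings, centred within dye, 28 of 36 pairs of the 9 lead probes had r above 0, with a median of 0.32 and a range from -0.43 to 0.82. The highest was Mmrn1 with Vwf at 0.82, followed by Itga2b with Rab27b at 0.77 and Itgb3 with Rab27b also at 0.77. These readings share arrays and the split into HSCs and MPPs, and the values are descriptive. The 3 genes most like Vwf over the readings were Btnl9 (r = 0.97), Cdkn1c (0.96) and Ablim3 (0.95). Those most like Itga2b were Vmn1r174 (0.94), Wdr45l (0.93) and Mas1 (0.90), and those most like Itgb3 were Hdac6 (0.94), Klk10 (0.94) and Atp6v0a1 (0.93). For Pf4 they were Dus2l (0.87), Casp4 (0.85) and Plch2 (0.84), for Rab27b Trim65 (0.90), Tmem14a (0.89) and Cxcr1 (0.88), and for Tubb1 Ppp2r2b (0.90), Hook2 (0.90) and Galr3 (0.89). Mmrn1, Selp and Gp9 had readings not well above background and were not ranked. Each gene named as most alike was picked as the highest among all tested named genes, which favours a high r over 12 readings. The highest r of a typical probe was not computed for comparison.

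The wider set of platelet-lineage genes, in 6 lists chosen by function, had median differences closer to 0 than the 9 genes, with or without Gp9. The 9 genes and the lists were chosen with earlier results of these data known. The contrast is therefore descriptive and does not test whether the 9 genes differ from their lineage. Of 13 megakaryocyte transcription factors, 8 had a higher mean in HSCs in WT and 9 in KO, with medians of 0.38 and 0.23, and 0 passed the adjusted test in limma (at an unadjusted p under 0.05, 3 higher and 1 lower in WT and 2 higher and 1 lower in KO, beside 14.2% and 11.6% of all probes in either direction). Gata2, a regulator of early megakaryocyte genes, was higher in HSCs by 1.50 in WT (SE 0.31, adjusted p = 0.169) and 1.84 in KO (SE 0.31, adjusted p = 0.0979). Zfpm1, the GATA cofactor FOG1, was higher by 1.36 in WT (SE 0.41) and 1.63 in KO (SE 0.39), adjusted p = 0.279 and 0.206. In KO over WT within HSCs only 2 of the 13 had a mean above 0, with a median of -0.32; Lyl1 was at -1.19 (SE 0.33) and Tal1 at -1.06 (SE 0.33), both with adjusted p = 0.673.

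Of 21 other platelet surface receptors, 19 were tested, and 11 had a higher mean in HSCs in WT and 11 in KO, with medians of 0.10 and 0.12. Over all probes 55.9% and 56.6% had a higher mean in HSCs. At an unadjusted p under 0.05 in limma, 3 receptors were higher and 1 lower in WT, and 4 higher and 1 lower in KO. In either direction 14.2% and 11.6% of all probes met that threshold. Clec1b, which encodes the podoplanin receptor CLEC-2, differed by 1.18 in WT (SE 0.40, adjusted p = 0.299). Of 14 other granule proteins, 12 were tested, with 7 higher in HSCs in WT and 5 in KO and medians of 0.13 and -0.03. In WT F13a1, the A chain of coagulation factor XIII, was lower in HSCs by the adjusted test, at -4.17 (SE 0.45, adjusted p = 0.0376), with 1 of 3 HSC and 3 of 3 MPP samples well above background. In KO Timp3, a metalloproteinase inhibitor, differed by 3.05 (SE 0.42, adjusted p = 0.0566), with every KO sample well above background.

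Of 13 genes of the secretion machinery, 6 were higher in HSCs in WT and 9 in KO, with medians of -0.12 and 0.21. Of 13 tested genes of integrin activation and platelet signalling, 8 were higher in HSCs in WT and 5 in KO, with medians of 0.24 and -0.14. Tbxas1, thromboxane synthase, differed by 2.18 in WT (SE 0.44, adjusted p = 0.164) and 2.10 in KO (SE 0.28, adjusted p = 0.0532), and its populations did not overlap in either. Of 11 cytoskeletal genes, 5 were higher in HSCs in WT and 6 in KO, with medians of -0.30 and 0.01. Of the 81 tested genes of these 6 lists, 1 in WT (F13a1) and 0 in KO passed the adjusted test between populations in limma, with 14 and 20 at an unadjusted p under 0.05 (17.3% and 24.7%, beside 14.2% and 11.6% of all probes). Between KO and WT 0 passed, with 7 in HSCs and 5 in MPPs at an unadjusted p under 0.05 (8.64% and 6.17%, beside 7.34% and 4.81% of all probes).

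**Figure D4:**
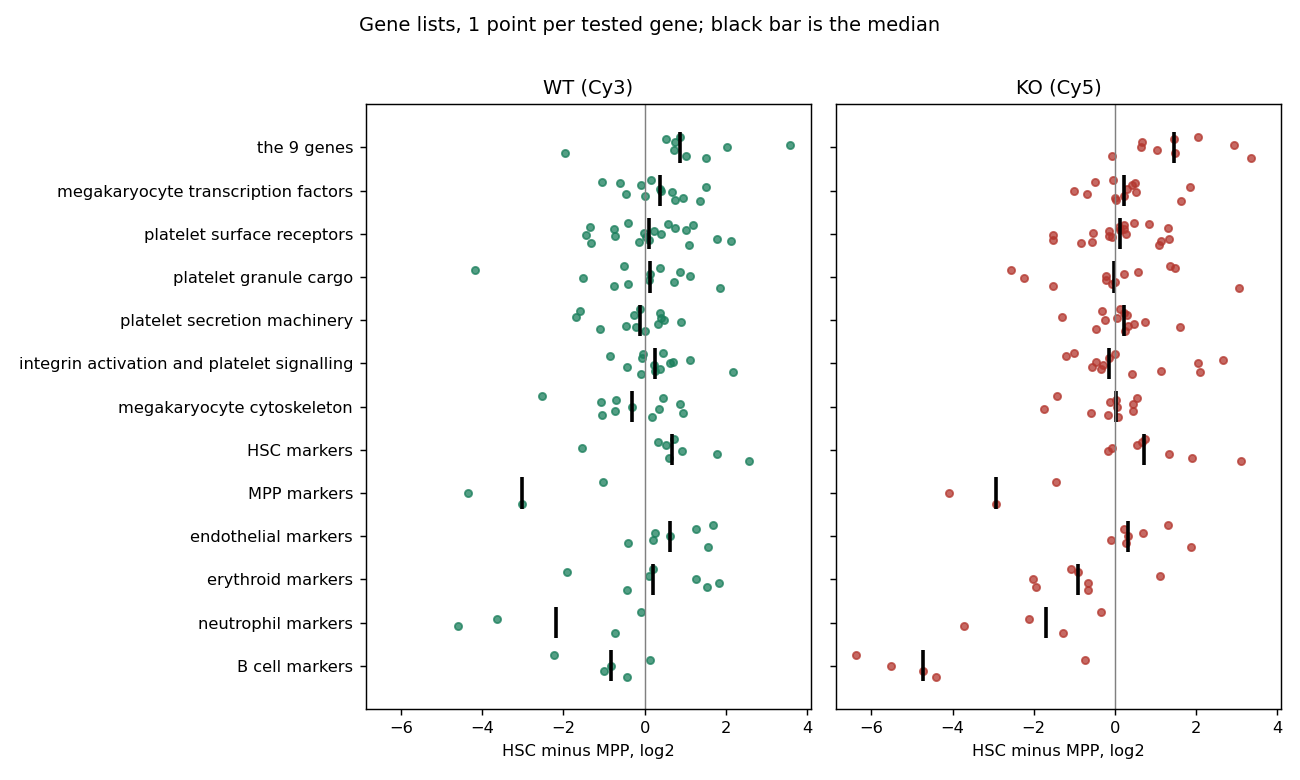
HSC minus MPP difference in log2 of each tested gene, 1 point per gene, for the 9 genes, 6 lists of other platelet-lineage genes and 6 marker lists, in WT (left) and KO (right), with the median as a black bar. The 9 genes have medians of 0.88 and 1.45 (0.88 and 1.24 without Gp9), the 6 platelet-lineage lists between -0.30 and 0.38, and the MPP markers -3.03 and -2.92.

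Markers of other cell types were read in the same way. Of 7 tested erythroid markers, 5 had a higher mean in HSCs in WT and 1 in KO, with medians of 0.21 and -0.90. All 4 tested neutrophil markers had a lower mean in HSCs, with medians of -2.19 in WT and -1.71 in KO, where Mpo, myeloperoxidase, was at -4.59 (SE 1.41) and -3.72 (SE 1.20). The 5 B cell markers had medians of -0.84 in WT and -4.74 in KO. Their KO over WT ratio in MPPs had a median of 3.91, with 5 of 5 above 0. In limma 4 of the 5 ratios had an unadjusted p under 0.05, which 4.81% of all probes met, and 0 passed the adjusted test. Of the 16 tested genes of these 3 lists, Pax5 alone passed the adjusted test between populations, with a KO HSC minus MPP difference of -4.41 (SE 0.52, adjusted p = 0.0383). The part of these cell types in the differences of the 9 genes was not tested.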

How the data were processed

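Each array gave 1 file of spot values. Per the file headers, spot intensities came from the scanned image by Agilent Feature Extraction 10.7.3.1, with processed intensities background-subtracted and dye-normalised, and probe positions refer to mm9. Version 8.5.1.1 of that software stands in the submitters' processing notes. The deposited series table holds log10 ratios of red over green, which matched the log ratios in the array files. Here, mean intensities were background-corrected by normexp (offset 50) in limma 3.58.1 (R 4.3.3), and each array's log2 KO over WT ratios were normalised by loess. Log2 levels were quantile-normalised over the 6 arrays within a dye. Control spots and spots marked as outliers were left out, and spots of one probe were averaged. A probe was tested when any 1 of the 4 groups had it well above background on its 3 arrays. Both populations were fitted together with lmFit and eBayes. The fit was also run on simulated data, in which no probe's spread exceeded the median spread of the probes. That run cannot show how the fit handles noisier probes.

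The lead probe is the tested probe with the highest mean log2 level. Up to 3 genes of a list with the smallest p in a comparison were named, and the most similar genes were those with the highest Pearson r over 12 readings, leaving out unnamed clones. The 9 genes and the lists were chosen with earlier results of these data known. The p-values rest on the spread among 3 samples per group, a number that limits precision. For ratios that spread was pooled over HSCs and MPPs and moderated across probes, so a probe has the same SE in both populations. The labels call the samples biological replicates without saying how many animals each holds. Alternatives covered background, normalisation, filter, probe choice, slide row, replicate block and each array left out.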

Additional observations from a re-analysis of the deposited data

How the results depend on the processing

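In WT the HSC minus MPP difference kept its sign for 9 of 9 genes in 14 settings, and in KO for 7 of 9. With no filter, with 1 probe per gene name and under the replicate block, the difference equals the main one by construction. Its sign could not change in those settings. The fit with slide row as a fixed term and the fit within row 1 also share their differences, so the 14 settings are not separate checks of sign. The Vwf call in KO was lost with the replicate block (3.35, adjusted p = 0.123) and with slide row as a fixed term (3.62, adjusted p = 0.278). Calls among all probes, 128 in WT and 157 in KO, became 63 and 85 with no filter on dim probes. They became 0 and 0, with 0 of the 9 genes in KO, under the replicate block and with slide row as a fixed term. Both fits leave fewer residual degrees of freedom, as does each fit with an array left out. The reason for the loss of calls was not tested. Median centring in place of loess moved the median ratio of all probes to 0.24 in HSCs and 0.21 in MPPs, and turned Tubb1 to 0.19 (KO over WT, HSCs), Pf4 to 0.17 (MPPs) and the Itgb3 HSC minus MPP ratio to 0.081. Scaling to the 75th percentile moved the WT median difference of all probes to 0.28. With slide row as a fixed term and within row 1, the HSC minus MPP ratio turned to -0.28 for Itga2b and 0.43 for Itgb3. Leaving out each array gave 0 to 105 calls in WT, 36 to 125 in KO and 0 to 1 of the 9 genes in KO. The KO over WT ratio then ran in HSCs from -0.045 to 1.00 for Gp9, -0.44 to 1.16 for Itga2b, -0.10 to 0.44 for Mmrn1, -0.022 to 1.34 for Rab27b and -0.75 to 0.35 for Tubb1. In MPPs it ran from -0.79 to 0.34 for Gp9, -1.10 to 0.16 for Itga2b, -0.50 to 0.63 for Pf4, -0.16 to 0.72 for Rab27b and -2.71 to 0.083 for Selp. The KO HSC minus MPP difference ran from -0.68 to 1.97 for Pf4 and -0.97 to 0.37 for Tubb1, and the HSC minus MPP ratio from -0.70 to 0.55 for Itgb3 and -0.42 to 0.95 for Rab27b. Beyond the constructions named, the cause of these changes was not tested. Signals near background limit Gp9, Selp and Mmrn1. Replicate numbers were not taken to pair the samples: deviations of same-numbered HSC and MPP arrays had r from -0.066 to 0.0062 in ratios, 0.044 to 0.16 in WT levels and -0.0061 to 0.087 in KO levels. Of the 6 arrays, 6 correlated best with their own number in WT levels, 3 in KO levels and 0 in ratios, a hint from the data and not the design.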
